A study of Mus musculus with 2 samples.

Results

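Transcripts of the machinery of histone H3 lysine 9 (H3K9) methylation were measured in mouse leukaemia cells. The genes are the writers Ehmt1, Ehmt2, Setdb1, Suv39h1 and Suv39h2, the heterochromatin protein 1 (HP1) genes Cbx1, Cbx3 and Cbx5, and the corepressor Trim28. These 9 symbols were taken as a list, of 27998 gene identifiers in the count matrices, and each was found in both matrices. All 9 passed the minimum of 100 unique molecular identifiers (UMIs, tags that each mark 1 RNA molecule) over both libraries, as did 8959 genes in all. The cells carried the MLL-AF9 fusion, an oncoprotein of acute myeloid leukaemia, together with the nuclease Cas9, and both cultures were grown with interleukin-3 at 10 ng per ml. The Renilla library came from cells with a guide RNA against Renilla luciferase, which is no mouse gene, and the Jumonji library from cells with a guide RNA against the Jumonji domain of Jmjd1c. The labels describe the source as mouse primary leukaemia. The sources used here do not give the number of guides, the clonality of the cells or the time after guide delivery. Each condition had 1 library, so no difference below has a replicate check and no test between conditions was made. All intervals are 95% intervals that cover counting error only.

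H3K9 methylation marks silent chromatin. EHMT2 (G9a) and EHMT1 (GLP) work as a heterodimer that places mono- and dimethylation, mostly in euchromatin. SUV39H1 and SUV39H2 place trimethylation at pericentromeric repeats, and SETDB1 places it at retroelements, where TRIM28 (KAP1) brings it to sites bound by KRAB zinc finger proteins. The HP1 proteins bind the methylated lysine through a chromodomain: HP1 beta is the product of Cbx1, HP1 gamma of Cbx3 and HP1 alpha of Cbx5. JMJD1C belongs to a demethylase family linked to the same residue. SETDB1 and EHMT2 have been studied as factors in MLL-AF9 leukaemia.

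Kept cells numbered 608 with 14418743 UMIs in the Renilla library and 575 with 12809661 UMIs in the Jumonji library, with median depths of 23528 and 22123 UMIs per cell and no shared barcode. Lymphoid, erythroid and stromal marker lists were near 0, apart from Nkg7 of the lymphoid list. Myeloid markers differed between the libraries. The 5 primary granule genes summed to 5221 CPM (UMIs scaled to a common library total) in the Renilla library and 1808 CPM in the Jumonji library, with none at 0. Summed monocyte and macrophage markers were at 127 and 589 CPM, neutrophil markers at 147 and 917 CPM with Ltf at 0 in both, and eosinophil markers at 35.3 and 81.8 CPM with Ear6 at 0 in the Renilla library. Camp of the neutrophil list and Ccr2 of the monocyte list went the other way, at log2 ratios of -1.76 (-2.18 to -1.36) and -1.15 (-1.44 to -0.87), Jumonji over Renilla. The part of these shifts in the values below was not tested, beyond the values by phase and cluster. Jmjd1c had 2025 UMIs (140 CPM) and 1435 UMIs (112 CPM), a log2 ratio of -0.33 (-0.42 to -0.23). Counts of 3′ ends do not show whether the targeted domain was edited.

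All 9 genes stood lower in the Jumonji library, each by less than 1.5-fold. The median log2 ratio of CPM, Jumonji over Renilla, was -0.33, and the members ranged from -0.50 for Cbx5 to -0.26 for Cbx3. Over all 8959 genes the median was -0.06, with quartiles of -0.30 and 0.22. By the size rule of 1.5-fold, 0 of 9 members were lower and 0 were higher, where 7.89% of all genes were lower and 9.91% higher. With every cell weighted equally, Suv39h1 at -0.64, Suv39h2 at -0.63 and Cbx5 at -0.65 passed 1.5-fold, and in cells of equal depth Cbx5 did, at -0.60. The counting interval lay below 0 for 9 of 9 members, against 31.8% of all genes, and the ratio itself was below 0 for 56.2% of all genes. Summed over the 9 genes, the transcripts made up 599 CPM in the Renilla library and 467 CPM in the Jumonji library, a log2 ratio of -0.36 (-0.41 to -0.31).

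**Figure D1:**
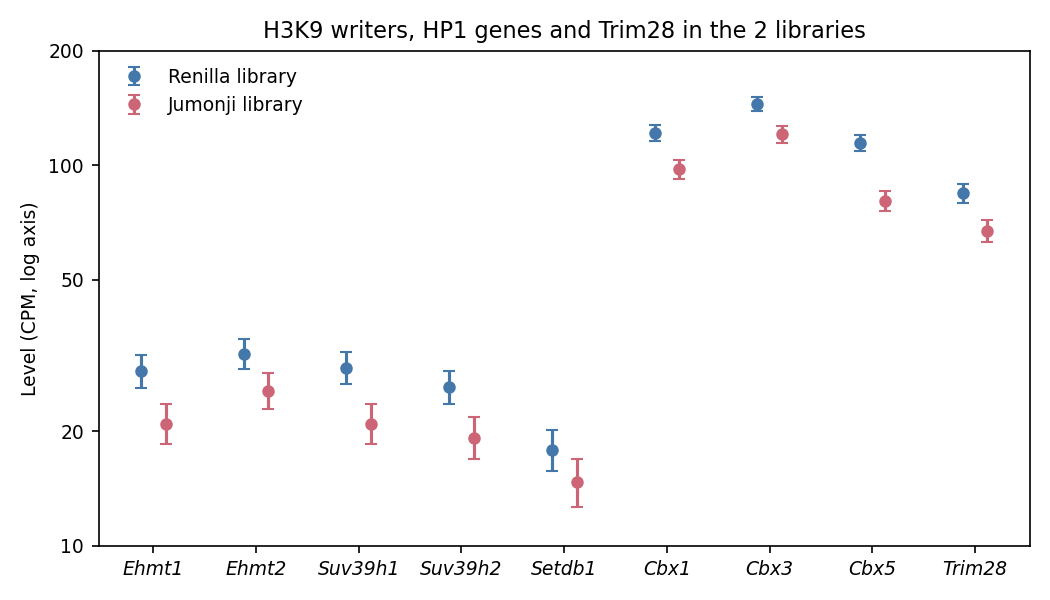
Level of each gene in CPM (log axis) in the Renilla library (blue) and the Jumonji library (red), with bars for the exact Poisson 95% interval. The 3 HP1 genes and Trim28 lie above the 5 writers in both libraries, and each red point lies below its blue partner.

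The writers of mono- and dimethylation were moderately expressed. Ehmt1 (ENSMUSG00000036893, chromosome 2, 24789928 to 24919614, minus strand, mm10) was at 28.7 CPM (26.0 to 31.6) from 414 UMIs in the Renilla library and at 20.9 CPM (18.5 to 23.6) from 268 UMIs in the Jumonji library. Its partner Ehmt2 (ENSMUSG00000013787, chromosome 17, 34898469 to 34914052, plus strand) was at 32.0 CPM (29.1 to 35.0) from 461 UMIs and 25.5 CPM (22.8 to 28.4) from 327 UMIs, in the same order. The log2 ratios were -0.46 (-0.68 to -0.23) for Ehmt1 and -0.32 (-0.53 to -0.12) for Ehmt2. Transcripts of both subunits of the heterodimer were thus lower in the Jumonji library, by 1.37-fold and 1.25-fold, with intervals of the 2 levels that did not overlap.

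Among the trimethylation writers, Suv39h1 (ENSMUSG00000039231, chromosome X, 8061171 to 8074760, minus strand) was at 29.3 CPM (26.5 to 32.2, 422 UMIs) in the Renilla library and 20.9 CPM (18.5 to 23.6, 268 UMIs) in the Jumonji library. Suv39h2 (ENSMUSG00000026646, chromosome 2, 3455815 to 3475031, minus strand) was at 26.1 CPM (23.5 to 28.9, 376 UMIs) and 19.2 CPM (16.9 to 21.8, 246 UMIs). Transcripts of the SUV39H paralogues differed between the libraries by similar amounts, with log2 ratios of -0.48 (-0.71 to -0.26) and -0.44 (-0.68 to -0.21). Setdb1 (ENSMUSG00000015697, chromosome 3, 95323525 to 95357202, minus strand), the writer that TRIM28 brings to retroelements, had the fewest UMIs of the 9 genes. It had 257 UMIs, or 17.8 CPM (15.7 to 20.1), and 188 UMIs, or 14.7 CPM (12.7 to 16.9). Its levels overlapped in their intervals, and its log2 ratio of -0.28 (-0.56 to -0.003) had the widest interval of the 9. Suv39h1, Suv39h2 and Setdb1 each overlap genes on the other strand in GENCODE M21 (Gm14820, Dclre1c with Gm13184, and Cers2), and the sources used here do not state whether the counting used strand.

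The HP1 genes carried most of the counts, 63.6% of all member UMIs in the Renilla and 64.0% in the Jumonji library. Their levels follow in that order of libraries. Cbx1 (ENSMUSG00000018666, chromosome 11, 96789127 to 96808640, plus strand) had 1755 UMIs, or 122 CPM (116 to 128), and 1249 UMIs, or 97.5 CPM (92.2 to 103). Cbx3 (ENSMUSG00000029836, chromosome 6, 51470360 to 51483704, plus strand) had 2091 UMIs, or 145 CPM (139 to 151), and 1546 UMIs, or 121 CPM (115 to 127). Cbx5 (ENSMUSG00000009575, chromosome 15, 103191544 to 103239816, minus strand) had 1649 UMIs, or 114 CPM (109 to 120), and 1033 UMIs, or 80.6 CPM (75.8 to 85.7). Of the 3 reader genes, Cbx5 (HP1 alpha) was furthest below its Renilla level, 1.42-fold lower, while Cbx1 was 1.25-fold and Cbx3 1.20-fold lower. The log2 ratios were -0.32 (-0.43 to -0.21) for Cbx1, -0.26 (-0.36 to -0.17) for Cbx3 and -0.50 (-0.62 to -0.39) for Cbx5. The 3′ ends of Cbx3 transcripts match 9 annotated pseudogenes at 95% identity or more over at least 90 bases, so its level is uncertain. None of these copies has an entry of its own in the matrices, and no other member had such a copy.

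Trim28 (ENSMUSG00000005566, chromosome 7, 12999114 to 13031035, plus strand), the corepressor that binds both SETDB1 and HP1, stood between the HP1 genes and the writers. It was at 84.5 CPM (79.8 to 89.4) from 1218 UMIs in the Renilla library and at 67.1 CPM (62.7 to 71.8) from 860 UMIs in the Jumonji library. The log2 ratio was -0.33 (-0.46 to -0.20), which is 1.26-fold lower. Zbtb45 overlaps it on the other strand.

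**Figure D2:**
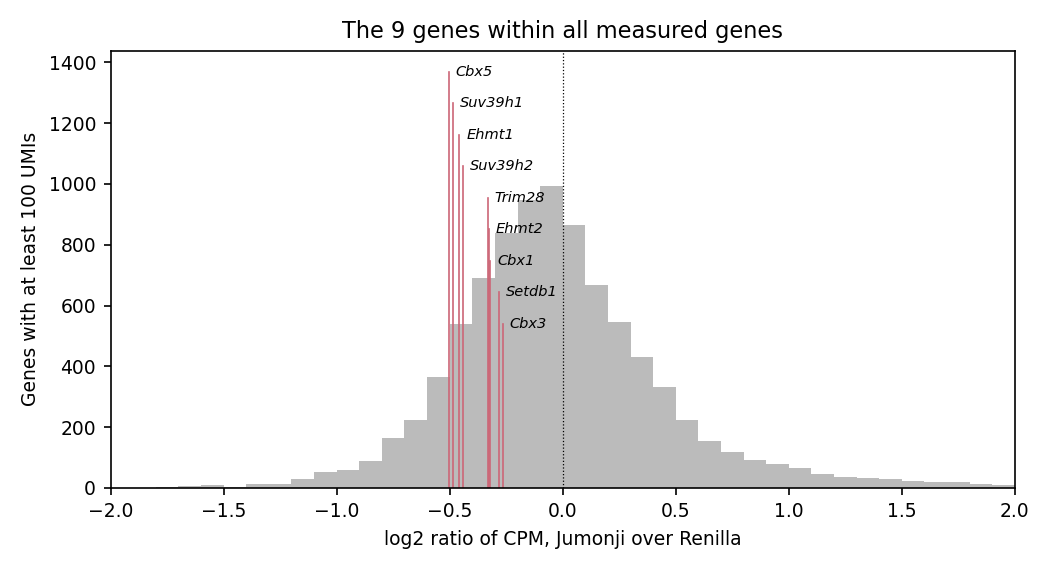
Number of genes (grey bars, at least 100 UMIs over both libraries) by log2 ratio of CPM, Jumonji over Renilla, with the 9 members as red lines whose height has no meaning; genes beyond 2 either way are not drawn. The members lie between -0.50 and -0.26, left of the median of all genes at -0.06.

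The order of levels was nearly shared by the libraries. A 3′ kit gives 1 tag per transcript whatever its length, so CPM can be ordered across genes, though capture can still differ from gene to gene. In both libraries the order began with Cbx3, Cbx1, Cbx5, Trim28 and Ehmt2 and ended with Suv39h2 and Setdb1. The largest step separated Trim28 from Ehmt2, at a log2 difference of 1.40 (1.25 to 1.56) in the Renilla and 1.40 (1.21 to 1.58) in the Jumonji library. Cbx1 and Cbx5 were not apart beyond counting error in the Renilla library, at 0.09 (-0.01 to 0.19), but were in the Jumonji library, at 0.27 (0.15 to 0.39). Ehmt2, Suv39h1, Ehmt1 and Suv39h2 formed a run in the Renilla library in which no gene differed from the next beyond counting error, though the ends of the run, Ehmt2 and Suv39h2, had levels with intervals that did not overlap. In the Jumonji library no gene differed from the next among Ehmt1, Suv39h1 and Suv39h2, while Ehmt2 stood above Ehmt1 by 0.29 (0.05 to 0.53). Cbx3 lay above 89.5% of the 8959 genes in level in the Renilla library, and Setdb1 above 41.6%.

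Detection was compared in cells cut at random to an equal depth of 10000 UMIs, which left out 29 Renilla and 55 Jumonji cells. These were unevenly spread over the clusters described below. Of cluster 2, 45 of 47 Renilla and 169 of 211 Jumonji cells were kept. Of cluster 3, 204 of 224 Renilla and 27 of 29 Jumonji cells were kept. Cbx3 had at least 1 UMI in 71.2% (67.3 to 74.8, exact Clopper-Pearson) of 579 Renilla cells and 62.7% (58.4 to 66.9) of 520 Jumonji cells. Cbx1 was found in 69.1% and 63.3%, Cbx5 in 62.2% (58.1 to 66.1) and 49.4% (45.0 to 53.8), and Trim28 in 57.0% and 48.1%. HP1 and Trim28 transcripts were thus seen in more cells than those of any writer. Ehmt2 was found in 28.2% and 20.8%, Suv39h2 in 24.5% and 16.0%, Ehmt1 in 23.3% and 18.5%, Suv39h1 in 21.8% and 18.5%, and Setdb1 in 15.7% (12.8 to 18.9) and 12.9% (10.1 to 16.1). Without thinning the shares ran from 34.9% for Setdb1 to 91.4% for Cbx3 in the Renilla library and from 27.8% for Setdb1 to 81.2% for Cbx1 in the Jumonji library. All 9 shares were lower in the Jumonji library, and the thinned intervals overlapped for Cbx1, Ehmt1, Suv39h1 and Setdb1. As a background, the stromal genes reached at most 0.192% and the erythroid genes at most 1.21% of thinned cells in either library, and the lymphoid genes Cd3e, Cd3d and Ms4a1 had no UMI, which by a limit of 3 counts allows a share of up to 0.518% of Renilla and 0.577% of Jumonji cells. Nkg7, a lymphoid list gene, was found in 20.03% and 18.7%, far above the rest of its list, and was not taken as a background.

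The median thinned cell held UMIs of 4 of the 9 genes in the Renilla and 3 in the Jumonji library. No cell held all 9, and 7 Renilla and 24 Jumonji cells held none. Of those cells without a member UMI, all 7 in the Renilla and 22 in the Jumonji library were called G1. For Ehmt1, Ehmt2, Setdb1 and Trim28 the share of cells with a UMI was near that of a Poisson count with the same mean: Trim28 was found in 57.0% of Renilla cells where 57.2% would follow from its mean. Cbx3 was more uneven, with a variance of 1.57 times its mean in the Renilla library and 1.61 times in the Jumonji library, where the highest cell had 13 UMIs.

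Cell cycle phases were called from S (43 genes) and G2/M (53 genes) scores that use no member. Calls gave 104 G1, 201 S and 274 G2/M cells in the Renilla and 174, 140 and 206 in the Jumonji library, so the G1 share was 18.0% (14.9 to 21.3) and 33.5% (29.4 to 37.7). In both libraries Suv39h1, Suv39h2 and Cbx5 had the highest ratios of S and of G2/M over G1 cells. Suv39h1 was at 11.2 CPM (7.26 to 16.6) in G1, 32.2 in S and 32.8 (28.8 to 37.2) in G2/M cells of the Renilla library, and at 8.82 (5.90 to 12.7), 23.0 and 27.9 (23.7 to 32.6) CPM in the Jumonji library. Suv39h2 was at 11.7 (7.62 to 17.1), 24.3 and 31.5 (27.6 to 35.8) CPM, and at 5.47 (3.24 to 8.65), 23.3 and 25.8 (21.8 to 30.3) CPM. Cbx5 was at 53.4 (44.2 to 63.9), 125 and 126 (118 to 134) CPM, and at 34.4 (28.3 to 41.3), 99.7 and 100.1 (92.0 to 109) CPM. For these 3 genes, and also for Cbx3 and Trim28, the G1 level stood apart from the S and G2/M levels in each library, with no overlap of intervals.

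**Figure D3:**
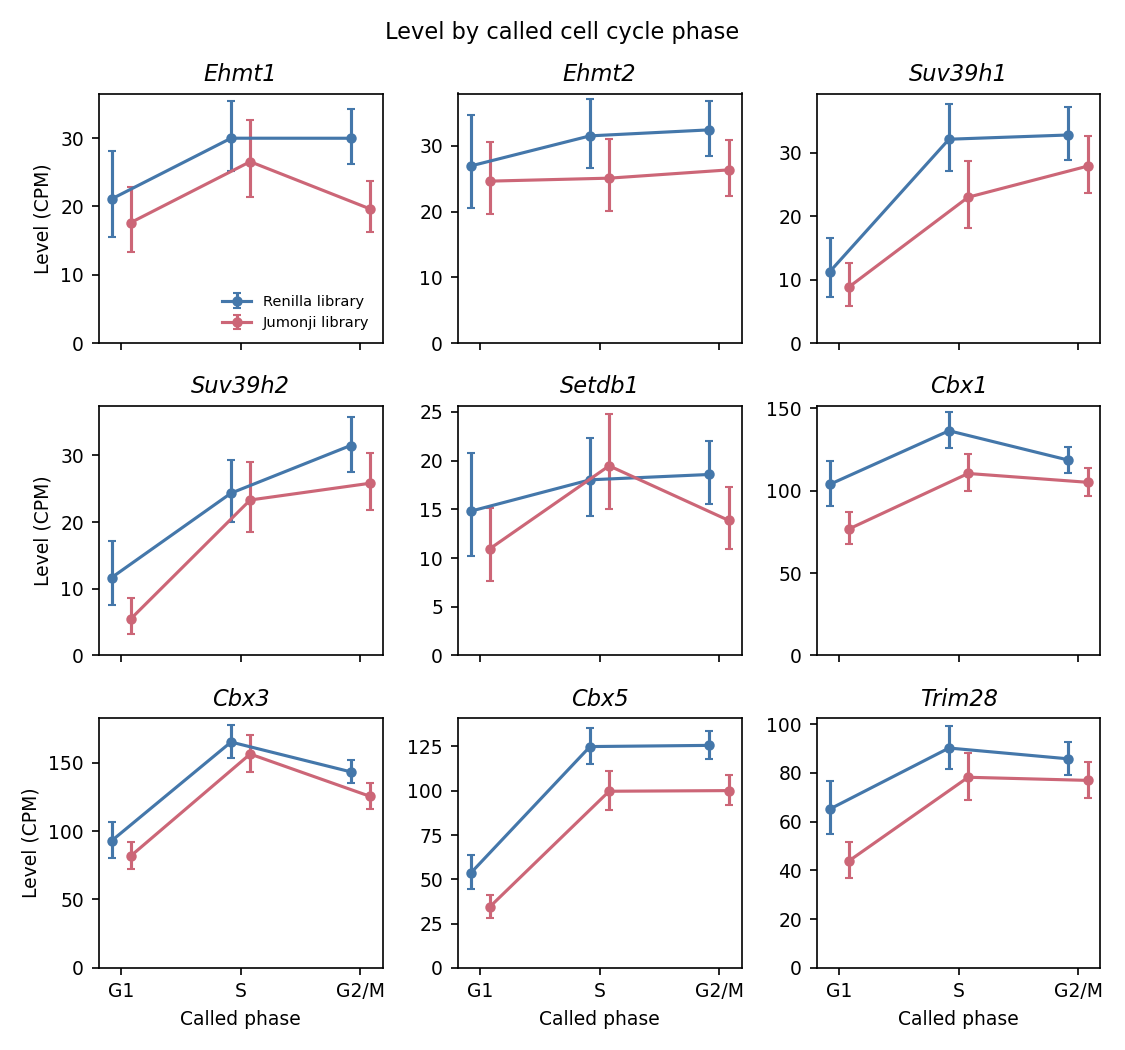
Level of each gene in CPM by called phase in the Renilla (blue) and Jumonji (red) libraries, with exact Poisson 95% intervals; each panel has its own axis from 0. Every gene is lowest in G1 cells of both libraries. The G1 intervals of Suv39h1, Suv39h2, Cbx5, Cbx3 and Trim28 lie below those of S and G2/M, while the Ehmt2 intervals overlap across phases.

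The log2 ratio of G2/M over G1 in the Renilla and Jumonji libraries was 1.55 (0.95 to 2.21) and 1.66 (1.09 to 2.29) for Suv39h1. For Suv39h2 it was 1.43 (0.84 to 2.08) and 2.24 (1.53 to 3.03), and for Cbx5 1.23 (0.96 to 1.52) and 1.54 (1.25 to 1.85). These ratios lay above those of 97.0% to 98.8% of 8863 genes, which are the measured genes outside the phase lists. Cbx3 was at 0.63 (0.41 to 0.85) and 0.62 (0.41 to 0.83), and Trim28 at 0.40 (0.14 to 0.67) and 0.81 (0.54 to 1.09). The remaining members had ratios of at most 0.51. Cbx1 was at 0.19 (-0.02 to 0.41) and 0.45 (0.24 to 0.67), Setdb1 at 0.33 (-0.23 to 0.92) and 0.34 (-0.24 to 0.95), Ehmt1 at 0.51 (0.05 to 0.99) and 0.16 (-0.31 to 0.64), and Ehmt2 at 0.27 (-0.15 to 0.70) and 0.10 (-0.30 to 0.51). By size, 4 of 9 members were at least 1.5-fold higher in G2/M than in G1 cells of the Renilla library, where 14.5% of all genes were, and 5 of 9 in the Jumonji library, where 16.1% were. The members' median was 0.51 and 0.62, beside 0.11 and 0.10 over all genes. Between cells ranked highest and lowest by G2/M score, in 3 equal parts, the Renilla ratios were smaller, at 0.68 for Suv39h1, 0.62 for Suv39h2, 0.63 for Cbx5 and 0.04 for Cbx3. In the Jumonji library they were at 1.76, 2.05, 1.02 and 0.45.

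S cells were already near the G2/M level. Against G1, 4 of 9 members were at least 1.5-fold higher in S cells of the Renilla library (background 13.2%) and 7 of 9 in the Jumonji library (background 16.5%). Between G2/M and S cells no member was 1.5-fold apart in either library, where 5.69% and 6.39% of genes were higher and 3.97% and 5.28% lower by that much. Within those limits Cbx3 was lower in G2/M than in S cells, at -0.20 (-0.34 to -0.07) and -0.32 (-0.48 to -0.15). Cbx1 was lower in the Renilla library, at -0.20 (-0.35 to -0.05), and Ehmt1 in the Jumonji library, at -0.43 (-0.85 to -0.02). Suv39h2 was higher in the Renilla library, at 0.37 (0.04 to 0.71), and at 0.15 (-0.26 to 0.56) in the Jumonji library.

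Most G1 calls in the Jumonji library fell in a single cluster. Joint clustering, made without the members, the phase lists and genes at least 1.5-fold apart between libraries, gave 5 clusters, which are numbered. Cluster 2, which had the highest level of the macrophage gene Ctss, held 47 Renilla and 211 Jumonji cells. It took 42 of the 104 G1 cells of the Renilla library and 147 of the 174 of the Jumonji library, and its median depth was 19815 and 14967 UMIs. The thinned shares and the phase calls cover 45 of its 47 Renilla cells but 169 of its 211 Jumonji cells. Within G1, Cbx5 was at 26.3 CPM (16.6 to 39.4) in cluster 2 and 71.0 (57.5 to 86.7) in the other clusters of the Renilla library, and at 27.1 (21.2 to 34.2) and 62.4 (44.9 to 84.3) CPM in the Jumonji library. Trim28 was at 27.4 (17.6 to 40.8) and 89.5 (74.3 to 107), and at 32.5 (26.0 to 40.2) and 87.6 (66.7 to 113) CPM. The G1 cells of cluster 2 thus had lower levels of both genes than other G1 cells in each library.

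Without cluster 2, 62 Renilla and 27 Jumonji G1 cells were left, and the phase ratios were smaller, apart from that of Ehmt1 in the Renilla library. Suv39h1 was at 0.94 (0.32 to 1.62) in the Renilla and 0.67 (-0.18 to 1.65) in the Jumonji library, Suv39h2 at 1.31 (0.60 to 2.12) and 0.65 (-0.23 to 1.69), and Cbx5 at 0.83 (0.52 to 1.14) and 0.69 (0.24 to 1.18). These 3 were the members still at least 1.5-fold higher in G2/M than in G1 cells, in each library, against 13.6% and 18.6% of all genes. In the Jumonji library only the interval of Cbx5 lay above 0 (background 7.65%). Trim28 was then at -0.06 (-0.34 to 0.23) and -0.19 (-0.59 to 0.23), Cbx1 at 0.03 (-0.22 to 0.28) and -0.11 (-0.46 to 0.25), and Cbx3 at 0.35 (0.10 to 0.61) and -0.39 (-0.68 to -0.09). Ehmt1 was at 0.54 and -0.17, Ehmt2 at -0.01 and -0.17, and Setdb1 at 0.13 and 0.07. The members' median was 0.35 in the Renilla and -0.11 in the Jumonji library. For S over G1 cells without cluster 2, 3 of 9 members in each library were at least 1.5-fold higher (background 11.8% and 18%), and the median was 0.53 and 0.29, where it had been 0.51 and 0.84 over all phased cells. Cbx5 was at 0.69 (0.22 to 1.19) there in the Jumonji library. Outside cluster 2, then, Trim28 and Cbx1 did not differ between G2/M and G1 cells beyond counting error in either library, and Cbx3 had opposite signs in the libraries. The G1 level behind the Jumonji value of Cbx3 rests on 112 UMIs in 27 cells. Cbx3 counts varied between Jumonji cells by 1.61 times their mean, a spread that the counting interval does not cover.

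**Figure D4:**
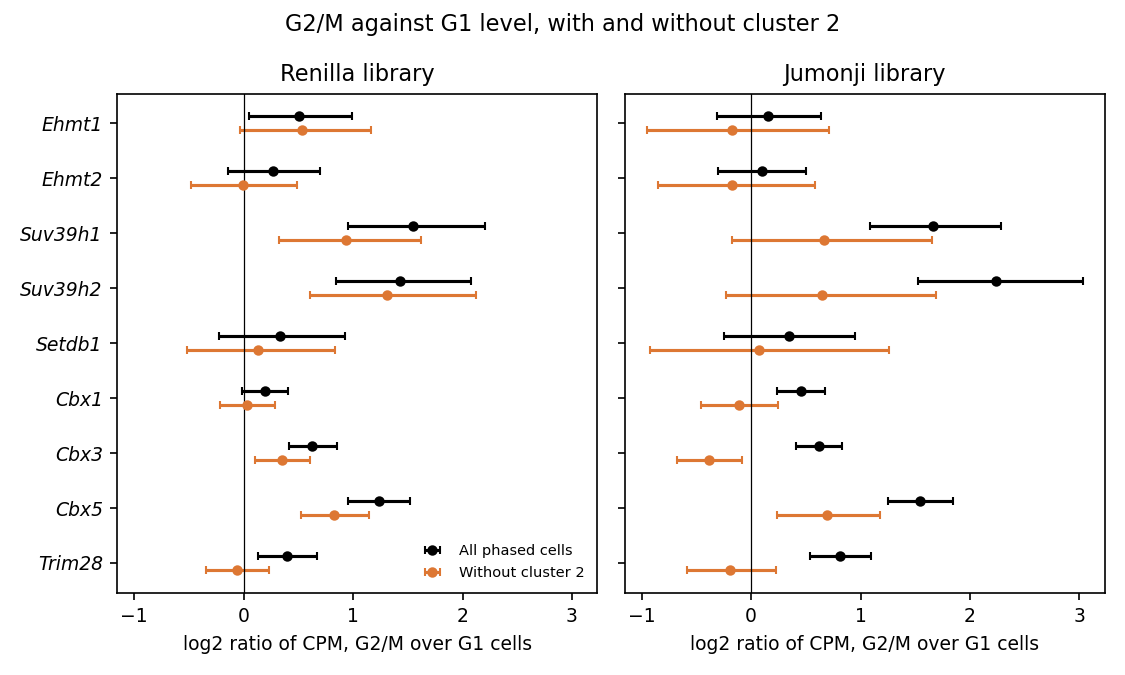
Log2 ratio of CPM in G2/M over G1 cells for each gene in the Renilla (left) and Jumonji (right) libraries, for all phased cells (black) and without cluster 2 (orange), with 95% counting intervals. Without cluster 2, Cbx5 stays above 0 in both libraries at 0.83 and 0.69, and Trim28 moves from 0.40 and 0.81 to -0.06 and -0.19.

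Promoter sequence is shown for Suv39h1, Cbx5 and Trim28, the members with a window that holds no annotated exon. Each window is the 250 bases before a RefSeq start (GRCm38.p6), printed 5′ to 3′ on the gene's strand. Capitals mark CCAAT on either strand, the box bound by NF-Y in many cell cycle promoters.
Suv39h1, chrX:8074761-8075010, minus strand: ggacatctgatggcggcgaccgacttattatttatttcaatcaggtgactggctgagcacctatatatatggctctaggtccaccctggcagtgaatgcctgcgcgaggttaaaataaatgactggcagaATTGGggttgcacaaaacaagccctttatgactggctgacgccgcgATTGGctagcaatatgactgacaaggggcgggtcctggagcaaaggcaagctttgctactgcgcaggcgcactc
Cbx5, chr15:103239853-103240102, minus strand: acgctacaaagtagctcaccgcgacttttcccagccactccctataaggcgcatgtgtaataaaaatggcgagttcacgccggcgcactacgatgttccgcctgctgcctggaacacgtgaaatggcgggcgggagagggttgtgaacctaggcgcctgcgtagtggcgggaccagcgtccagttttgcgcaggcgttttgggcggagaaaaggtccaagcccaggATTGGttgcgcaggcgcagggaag
Trim28, chr7:13023902-13024151, plus strand: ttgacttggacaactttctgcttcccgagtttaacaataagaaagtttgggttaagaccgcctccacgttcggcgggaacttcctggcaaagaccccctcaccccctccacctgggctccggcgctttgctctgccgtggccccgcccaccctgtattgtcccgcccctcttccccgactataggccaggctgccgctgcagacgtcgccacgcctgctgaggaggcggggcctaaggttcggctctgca
Suv39h1 holds the box on the opposite strand at 120 and 74 bases before the start, and Cbx5 holds it at 24 bases before the start. The RefSeq start of Cbx5 lies just upstream of the GENCODE gene model. The Trim28 window lies inside the GENCODE gene model, which begins at 12999114, and it holds no such box. The box occurs in 33.8% of 32851 promoter windows of the same length, so its presence is common. A cell cycle homology element (TTTGAA, in 16.0% of windows) and E2F sites (TTTCCCGC, TTTGGCGC, TTTCGCGC or TTTGCCGC, in 1.86% of windows), searched on both strands, were in none of the 3 windows. A second Suv39h1 start and the first Cbx3 start had an E2F match at 64 and 168 bases before the start, in windows that overlap annotated exons and are not shown. The bases after this second Suv39h1 start, and after the Cbx5 start shown, were not found in transcript sequences, unlike those after the other starts. A second Cbx5 start, whose following bases were found, had none of these motifs. Among the other windows not shown, that of Suv39h2, whose G2/M over G1 ratio was the highest of the 9 in the Jumonji library, had none of these motifs. The window of Setdb1, whose G2/M over G1 intervals held 0, had CCAAT at its upstream end. A match is a description of letters and not a measured site.

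Within phases the members were again lower in the Jumonji library, apart from Setdb1 in S cells. Some ratios within a phase were further below 0 than over all cells. In G1 cells these were Suv39h2 at -1.09 (-2.05 to -0.17), Cbx5 at -0.64, Trim28 at -0.57, and Cbx1 and Setdb1 at -0.44. In G2/M cells they were Ehmt1 at -0.61 and Setdb1 at -0.42. The interval of each held its value over all cells. The median log2 ratio, Jumonji over Renilla, was -0.44 in G1, -0.21 in S and -0.29 in G2/M cells, with 9, 8 and 9 of 9 members below 0. Beside these stand -0.05, -0.02 and -0.05 over all genes. The intervals of 4, 3 and 5 members lay below 0 (background 16.9%, 15.1% and 22.9%). Cbx5 was below 0 in each phase, at -0.64 (-1.02 to -0.25), -0.33 (-0.52 to -0.13) and -0.33 (-0.48 to -0.18), and so was Cbx1, at -0.44, -0.30 and -0.17. Setdb1 was at 0.11 (-0.38 to 0.59) in S cells. By size, Suv39h2 and Cbx5 were at least 1.5-fold lower in G1 cells (background 13.7%), no member was in S cells (8.83%), and Ehmt1 was in G2/M cells (9.40%), at -0.61 (-0.95 to -0.27). With equal weight for the 3 phases the median was -0.31, beside -0.05 over all genes. The G1 groups differed in makeup, as cluster 2 took 42 of 104 Renilla and 147 of 174 Jumonji G1 cells. Within G1, in Renilla then Jumonji cells, Cbx5 was at 26.3 and 27.1 CPM in cluster 2 and 71.0 and 62.4 CPM elsewhere. Trim28 was at 27.4 and 32.5 CPM, and at 89.5 and 87.6 CPM. Suv39h2 was at 10.3 and 2.68 CPM, and at 12.6 and 16.3 CPM. The part of this makeup in the G1 and equal-weight ratios was not tested.

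**Figure D5:**
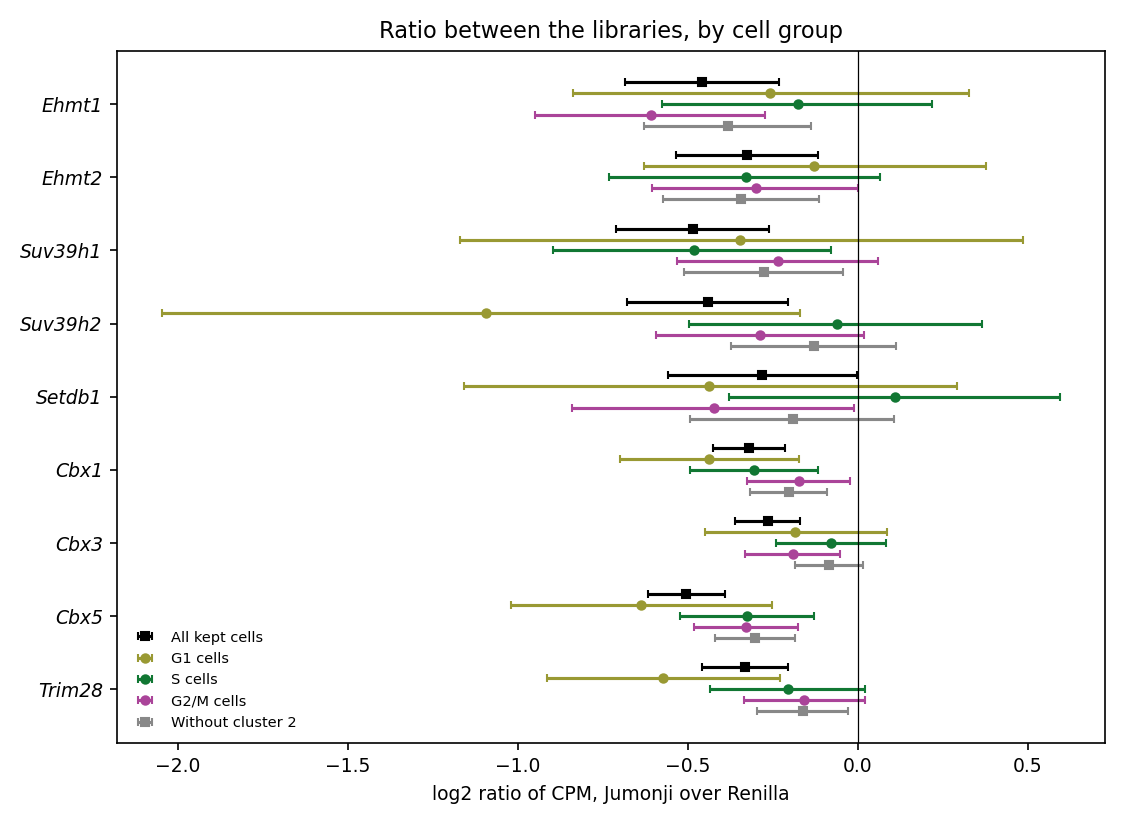
Log2 ratio of CPM, Jumonji over Renilla, for each gene over all kept cells (black squares), in G1 (olive), S (green) and G2/M (purple) cells, and without cluster 2 (grey squares), with 95% counting intervals. The points over all kept cells lie between -0.50 and -0.26, those without cluster 2 between -0.38 and -0.09.

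Cluster 2 held more Jumonji than Renilla cells and had low levels of the members. In that cluster the members were lower than in the other clusters of the same library, with a median log2 ratio of -1.09 in the Renilla and -1.21 in the Jumonji library, beside -0.19 and -0.13 over all genes. Suv39h1 was at -2.56 (-4.19 to -1.32) and -1.72 (-2.36 to -1.13), Cbx5 at -1.88 (-2.45 to -1.37) and -1.55 (-1.85 to -1.27), and Trim28 at -1.64 (-2.25 to -1.09) and -1.24 (-1.54 to -0.95). Suv39h2, at 3.59 CPM in cluster 2 and 24.7 CPM elsewhere in the Jumonji library, had a ratio of -2.78 (-3.76 to -1.95) there and -1.10 (-2.07 to -0.28) in the Renilla library. Ehmt1 was the closest to its level elsewhere in the Renilla library, at -0.40 (-1.11 to 0.23), and Ehmt2 in the Jumonji library, at -0.10 (-0.48 to 0.27). By size 7 of 9 and 6 of 9 members were at least 1.5-fold lower in the cluster, where 28.1% and 21.8% of all genes were. Clusters were formed on other genes of the same cells, so these values describe the cluster and test nothing.

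Leaving cluster 2 out of both libraries moved the median ratio of Jumonji over Renilla from -0.33 to -0.20, beside -0.03 over all genes. All 9 members stayed below 0, where 53.8% of genes were, and 6 of 9 intervals lay below 0, where 25.2% of genes had such an interval. Ehmt1 was then at -0.38 (-0.63 to -0.14), Ehmt2 at -0.34 (-0.57 to -0.12) and Cbx5 at -0.30 (-0.42 to -0.18). Suv39h2 at -0.13 (-0.37 to 0.11), Setdb1 at -0.19 (-0.49 to 0.11) and Cbx3 at -0.09 (-0.19 to 0.02) no longer differed beyond counting error.

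Within single clusters the members' median lay closer to 0 than the -0.33 over all kept cells, though only slightly so in cluster 1. Some single members were further apart than over all kept cells, such as Suv39h2 in cluster 2 and Ehmt2 in cluster 5. The members' median ratio was -0.29 in cluster 1, 0.03 in cluster 2, -0.16 in clusters 3 and 4, and -0.15 in cluster 5, with 9, 4, 6, 7 and 7 members below 0. The share of all genes below 0 was 52.2%, 48.1%, 49.7%, 53.6% and 45.6%. In clusters 1 to 5, 1, 1, 2, 2 and 1 of the 9 members had an interval below 0, against 16.5%, 8.26%, 5.70%, 11.6% and 7.56% of genes. Cbx5 was the only such member in cluster 1, at -0.36 (-0.55 to -0.16), and 1 of the 2 in cluster 3, at -0.49 (-0.86 to -0.14). It was at -0.04 (-0.32 to 0.25) in cluster 4, where its level was lower in both libraries, at 76.9 and 74.97 CPM. In cluster 2 only Suv39h2 had an interval below 0, at -1.81 (-3.10 to -0.53), from 12 UMIs in each library. Cbx1 had one in cluster 3, at -0.47 (-0.86 to -0.10), and in cluster 4, at -0.26 (-0.48 to -0.04). Trim28 had one in cluster 4, at -0.33 (-0.60 to -0.06), and Ehmt2 in cluster 5, at -0.66 (-1.27 to -0.03). Cluster 3, with 224 Renilla and 29 Jumonji cells, and cluster 5, with 44 and 134, were unevenly filled, so their intervals are wide.

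Across the 10 groups made by 5 clusters and 2 libraries, Cbx3 and Trim28 were the members with the most similar log2 levels (Pearson r of 0.95), followed by Suv39h1 and Cbx5 (0.92). The groups share libraries, depth and cycle makeup, so these are descriptions. Among 6591 genes with at least 300 UMIs, the closest to Trim28 were Eif1ax (0.99), Usp39 (0.99) and Ywhaz (0.99), and to Cbx3 they were Ranbp1 (0.99), Mrpl18 (0.98) and Mrpl42 (0.98). Cbx5 was closest to Hirip3 (0.98), Ttf2 (0.97) and Cdca4 (0.97), Suv39h1 to Mrgbp, Nup62 and Nol12 (each 0.97), and Suv39h2 to Med19 (0.98), Pmf1 (0.97) and Rnps1 (0.97). Ehmt1 was closest to Fam133b (0.97), 2610507B11Rik and Cad (both 0.95), while its partner gene Ehmt2 was closest to Arih1, Ddx6 (both 0.93) and D8Ertd738e (0.93). Setdb1 was closest to Rnaseh2a (0.97), Cdk2ap1 (0.97) and E2f3 (0.95), and Cbx1 to Pom121 (0.95), Farsb (0.95) and Mrps25 (0.94).

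Genes that work with the members showed a smaller median difference. Of 25 listed partners, in 6 lists, 23 were measured, with a median log2 ratio of -0.15, and 18 were below 0 (all genes 56.2%). By size 2 were higher and 1 was lower, where 9.91% and 7.89% of all genes were. The 3 partners of the G9a and GLP complex (Wiz, Zfp644 and Cdyl) had a median of -0.18 and none was 1.5-fold apart. Of the SETDB1 cofactor Atf7ip and the HUSH complex, 5 genes in all, the median was -0.15. Morc2a, the gene of an ATPase that HUSH recruits, was lower at -0.66 (-1.07 to -0.25), with 80 UMIs against 142. Both measured TRIM28 relatives (Trim24 and Trim33) were within 1.5-fold, with a median of 0.06. The 10 measured genes of HP1-binding proteins had a median of -0.14. Lbr, the gene of the lamin B receptor, which binds HP1 at the nuclear envelope, was higher at 0.59 (0.51 to 0.68), at 205 CPM against 136. The maintenance DNA methylation genes Uhrf1 and Dnmt1 had a median of -0.15. Setdb2, the remaining listed writer, was higher at 0.98 (0.56 to 1.42), with 128 UMIs against 73.

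Among H3K9 demethylases, which remove the mark, 9 of 12 listed genes were measured, with a median of -0.06. Kdm7a was higher at 1.22 (0.89 to 1.56), with 230 UMIs against 111, and Phf2 was lower at -0.65 (-0.99 to -0.32), with 119 UMIs against 210. Of 9 listed Polycomb genes, which serve the H3K27 mark, 7 were measured, with a median of -0.09. The intervals of 3 lay below 0, where those of 31.8% of all genes did, and the intervals of 2 lay above 0. Suz12 was at -0.51 (-0.65 to -0.36) and Ezh2 at -0.17 (-0.26 to -0.08), both within 1.5-fold. Ezh1 was higher at 0.69 (0.27 to 1.12) and the chromodomain gene Cbx6 was lower at -1.08 (-1.47 to -0.69), with 80 UMIs against 190. Germline genes, which H3K9 and DNA methylation keep silent in somatic cells, were at or near 0 in both libraries: 0 of 10 reached 100 UMIs and 7 had none. Ddx4, with 15 UMIs in the Renilla and 0 in the Jumonji library, had the most.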

How the data were processed

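Single cells were profiled on the Chromium platform of 10x Genomics (3′ kit, version 2), per the labels' protocols. The deposited values are raw UMI counts per gene and barcode, made with Cell Ranger 1.3.1 on mm10, per the submitters' processing notes. The sources used here do not give the annotation release, the calling of cells or the use of strand. The 651 Renilla and 652 Jumonji barcodes were filtered to at least 500 genes and at most 10% mitochondrial UMIs, which left out 43 and 77 barcodes, all by the mitochondrial limit. Scrublet marked 10 Renilla cells (1.64%) and 4 Jumonji cells (0.696%) as doublets, and these were kept.

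UMIs were summed over cells and divided by the library total to give CPM. Levels carry exact Poisson intervals, ratios the exact conditional binomial interval of 2 Poisson counts, and shares exact Clopper-Pearson intervals. With 1 library per condition nothing was tested, and genes were called by size at 1.5-fold. UMIs from amplified molecules are counted once per tag, and the intervals cover counting error only.

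Phases were called on cells thinned to 10000 UMIs. The usual G2/M list was used without Cbx5, so no score uses a member. The partners Lbr, Uhrf1 and Chaf1b are in the phase lists, and no phase value is given for them. Clusters were found with scanpy 1.11.5 and leidenalg 0.10.2 (2000 variable genes of 8172, 30 components, 15 neighbours, resolution 0.6). No cell type name was given to a cluster.

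The members and lists were chosen with earlier results of these data known. Named genes are the 9 members, listed genes at least 1.5-fold apart with at least 50 UMIs, Jmjd1c, and the 3 genes most like each member by Pearson r of log2(CPM + 1) over groups of at least 20 cells. Ddx4, Suz12, Ezh2 and other genes named with a list's content fall outside this rule. Of 27998 identifiers, 27645 were found in GENCODE M21 on the same build, which gave coordinates (1-based). Promoter sequences are from RefSeq. Copies of 3′ ends (the last 300 bases) were searched with BLAST 2.17.0.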

Additional observations from a re-analysis of the deposited data

How the results depend on the processing

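No paired analysis was possible because each condition has 1 library and the labels give no replicate numbers. The median ratio of the 9 members, Jumonji over Renilla (-0.33), was -0.20 without cluster 2 and -0.15 with equal weight for every cluster, an alternative chosen after seeing the data. With that weighting Setdb1 was at 0.0161 and Trim28 at 0.0285, above 0. The count of members at least 1.5-fold apart, 0, was 1 in cells thinned to 10000 UMIs (Cbx5) and 3 with every cell weighted equally (Suv39h1, Suv39h2 and Cbx5), where the median was -0.53. The median stayed between -0.38 and -0.27 with all deposited barcodes, with at most 5% mitochondrial UMIs, without marked doublets, in thinned cells and under both other scalings. Of 90 single-member ratios over 10 alternatives, 76 moved by less than their interval, 12 by more, and 2 changed sign. The Renilla median of G2/M over G1 (0.51) was 0.11 between cells ranked highest and lowest by G2/M score, in 3 equal parts. Without cluster 2 the Jumonji median (0.62) was -0.11, its count at least 1.5-fold higher was 3 in place of 5, and single ratios that changed sign were those of Trim28 (-0.0589) and Ehmt2 (-0.01) in the Renilla library, and of Cbx1 (-0.11), Cbx3 (-0.39), Trim28 (-0.19), Ehmt1 (-0.17) and Ehmt2 (-0.17) in the Jumonji library. The share of genes at least 1.5-fold apart was 17.8% with 100 UMIs as the minimum and 29.8% with 1 UMI in each library. The cause of these moves was not tested. Depth limits the writers most: in the G1 cells of the Jumonji library outside cluster 2, Setdb1 had 9 UMIs and Suv39h2 had 11.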

Other observations

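The barcodes left out for their mitochondrial share, 43 in the Renilla and 77 in the Jumonji library, held 252585 and 421807 UMIs. Their Cbx5 level was 150 CPM (106 to 206) in the Renilla library and 87.7 CPM (61.8 to 121) in the Jumonji library, from 38 and 37 UMIs, a log2 ratio of -0.78 (-1.47 to -0.09). Cbx1 was at 87.1 CPM and 119 CPM, a ratio of 0.44 (-0.31 to 1.24), the opposite sign to the kept cells with an interval that holds 0. The intervals of the other 7 members also held 0.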
